A study of Arabidopsis thaliana with 8 samples.

Results

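A set of 5 genes of the expansin superfamily are described here: EXPA4, EXPA8 and EXPA15 of the alpha-expansins, EXPB1 of the beta-expansins and EXLA2 of the expansin-like A group. They were taken as the probe sets that name 1 of these genes alone in the array annotation, which gave 5 probe sets, 1 for each gene, of 13356 genes that have such a probe set. The genes themselves were chosen by their values for ethylene against air on these same arrays, so their ethylene differences are a description and carry no test. Material came from whole dark-grown seedlings of wild-type Arabidopsis thaliana, accession Col-0, 3 days old when frozen. The 4 air arrays had seedlings that germinated for 72 h in darkness in air, and the 4 ethylene arrays had seedlings with 68 h of air and then 4 h of ethylene at 10 ppm, a gaseous growth hormone. Each group has 2 replicas in each of 2 experiments, and an array is written below with its experiment first and its replica second, as in air 1-2. The description of ethylene 2-2 names both a first and a second replica, so its replica number was taken from the title. No label says whether replicas were separate cultures, so a p-value measures the spread between these samples, which may be technical. The labels name no organ, and although the genes are known from growing organs, the arrays do not show in which organ of the seedling a signal arose. In such whole seedlings fewer cells of a type and less RNA per cell cannot be told apart.

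Expansins are secreted wall proteins that let cellulose and matrix polymers slip past each other, so that a wall under turgor can extend, and they act best at acid pH. Alpha-expansins and beta-expansins are the subfamilies with shown wall-loosening activity, and beta-expansins include the grass pollen allergens. For expansin-like proteins such activity has not been shown in the same way. In a dark-grown seedling the hypocotyl lengthens by cell extension, and ethylene is known to shorten it.

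The RefSeq gene table lists 36 expansins of Arabidopsis, namely 26 alpha-expansins, 6 beta-expansins, 3 of the expansin-like A and 1 of the expansin-like B group. Of these, 18 have a probe set that names them alone, and the other 18 are not analysed here. The 5 genes described are 5 of those 18. All 5 passed the filter that left out the dimmest 30% of probe sets, while 9 of the other 13 did. Each of the 5 probe sets carries the plain suffix "_at", which by its type is meant for a single transcript. Signal from a related expansin on these probes could not be checked here, as the probe sequences were not used.

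All 5 genes had lower mean intensities in ethylene, by 1.64-fold for EXPA4 to 4.06-fold for EXPB1. Intensity here is the authors' scaled linear value of a probe set, and differences and folds are on the scale of log2(intensity + 16). EXPB1 had the largest difference of the 5, EXPA8 and EXPA15 had nearly the same one, and EXLA2 and EXPA4 had the smallest. The 4 ethylene arrays lay below the 4 air arrays for 4 of the 5 genes, which 6.29% of all tested probe sets also showed, and only EXPA4 among the 5 had overlapping groups.

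EXPA8 (AT2G40610, probe set 255822_at) is an alpha-expansin. Its intensity was 29048 on air 1-1, 28072 on air 1-2, 20796 on air 2-1 and 18370 on air 2-2. In ethylene it was 9188 on ethylene 1-1, 10039 on ethylene 1-2, 7822 on ethylene 2-1 and 9532 on ethylene 2-2. The air arrays fell into a brighter pair from experiment 1 and a dimmer pair from experiment 2, the ethylene arrays did not separate by experiment, and the lowest air value was well above the highest ethylene value. The means were 24072 ± 5292 in air and 9145 ± 948.9 in ethylene (SD, n = 4), a log2 difference of −1.37 (SE 0.18).

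EXPA15 (AT2G03090, probe set 266770_at), another alpha-expansin, had 2590 on air 1-1, 2866 on air 1-2, 1922 on air 2-1 and 1568 on air 2-2. Its ethylene values were 737.4 on ethylene 1-1, 898.9 on ethylene 1-2, 854.7 on ethylene 2-1 and 875.7 on ethylene 2-2. As for EXPA8, the air values were higher in experiment 1, and the ethylene values lay close together with a coefficient of variation of 8.53% against 26.7% in air. The mean went from 2237 ± 596.7 to 841.7 ± 71.8 (SD, n = 4), a log2 difference of −1.36 (SE 0.21).

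EXPA4 (AT2G39700, probe set 267590_at) is the alpha-expansin whose groups overlapped. It had 9674 on air 1-1, 11676 on air 1-2, 6030 on air 2-1 and 5531 on air 2-2, and 6109 on ethylene 1-1, 5622 on ethylene 1-2, 3780 on ethylene 2-1 and 4003 on ethylene 2-2. The highest ethylene value, from experiment 1, was above both air values of experiment 2, but within each experiment both ethylene arrays were below both air arrays. The means were 8228 ± 2949 and 4879 ± 1160 (SD, n = 4), and the log2 difference was −0.71 (SE 0.26). With the experiment as a block this error was 0.12.

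EXPB1 (AT2G20750, probe set 265443_at) is the only beta-expansin of the 5. Its values were 5366 on air 1-1, 7254 on air 1-2, 5872 on air 2-1 and 4164 on air 2-2, and 876.0 on ethylene 1-1, 1255 on ethylene 1-2, 1501 on ethylene 2-1 and 2054 on ethylene 2-2. Both ethylene arrays of experiment 2 were brighter than both of experiment 1, and in air the experiments overlapped. The mean was 5664 ± 1280 in air and 1422 ± 493.9 in ethylene (SD, n = 4), a log2 difference of −2.02 (SE 0.26). Of all tested probe sets, 34 (0.214%) had a more negative difference.

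EXLA2 (AT4G38400, probe set 252997_at) belongs to the expansin-like A group, and its overexpression in Arabidopsis is known to alter growth of the dark-grown hypocotyl. It had 7084 on air 1-1, 6766 on air 1-2, 7130 on air 2-1 and 6266 on air 2-2, and 3103 on ethylene 1-1, 4396 on ethylene 1-2, 3680 on ethylene 2-1 and 3558 on ethylene 2-2. In air it varied least of the 5 genes, with a coefficient of variation of 5.84%, and in neither group did the experiments separate. The mean went from 6811 ± 398.0 to 3684 ± 535.4 (SD, n = 4), a log2 difference of −0.89 (SE 0.14).

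**Figure D1:**
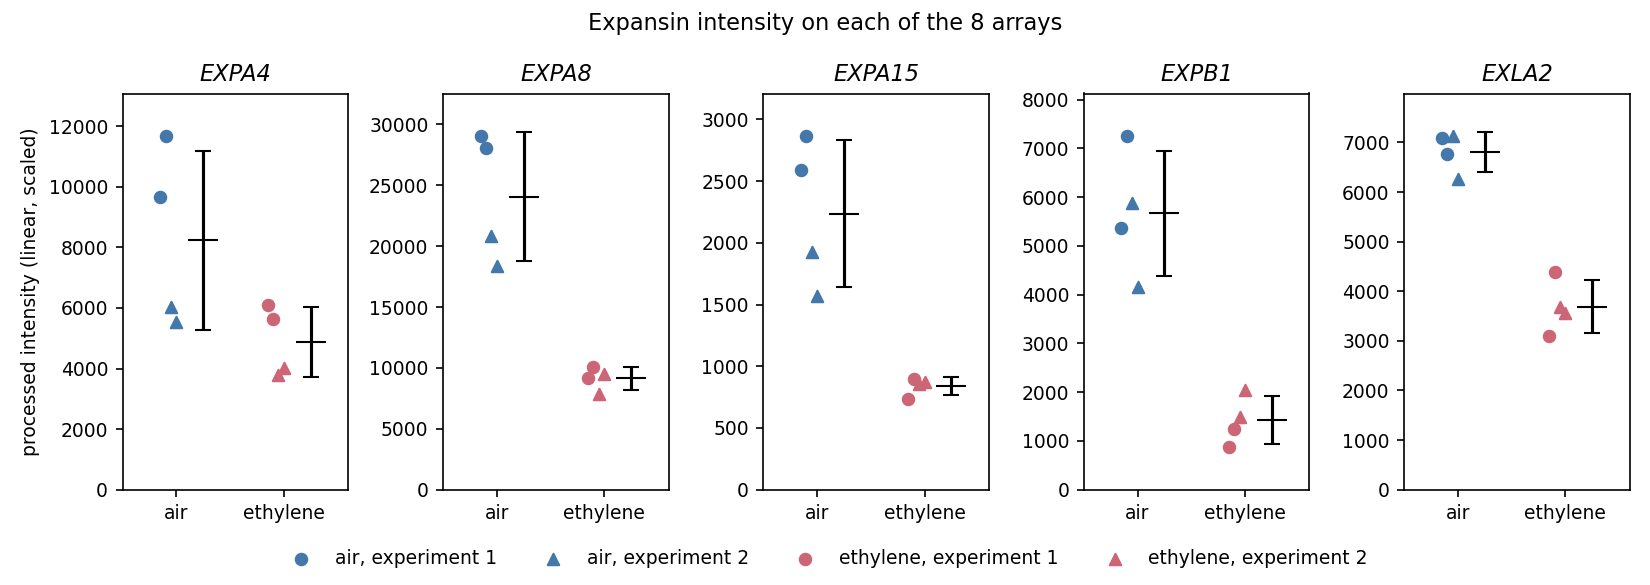
Processed intensity (linear y axis from 0, own scale for each gene) of the 5 expansins on each array, with circles for experiment 1 and triangles for experiment 2. The horizontal mark and bar beside the points are the mean ± SD over 4 arrays. All ethylene points lie under all air points except for EXPA4, whose ethylene arrays of experiment 1 reach 6109 while the air arrays of experiment 2 are at 5531 and 6030.

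Over all tested probe sets the median difference was 0.01 and 48.5% were negative, whereas the 5 genes had a median of −1.36, a value that follows from how they were picked. Of the 5, 4 were under the calling threshold (limma, adjusted p under 0.05) in the lower direction and 0 in the higher one, beside 2.55% of tested probe sets called lower. With the experiment as a block, a model in which both groups share a shift between experiments, EXPA4 was also called, so all 5 were, beside 7.35% of probe sets called lower. When the replicas of each group within an experiment were treated as a random block, 3 of the 5 were called, without EXPA4 and EXLA2. In that model a shift shared by air and ethylene of an experiment stays in the error. The counts are printed for the record, and nothing is read from them because the genes were picked on this contrast.

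Each same-numbered pair of arrays gave a lower ethylene value for each of the 5 genes, which follows in part from how they were picked. For EXPB1 the ethylene value was 16.6% of the air value in pair 1-1, 17.5% in pair 1-2, 25.8% in pair 2-1 and 49.5% in pair 2-2. For EXPA8 this share was 31.7%, 35.8%, 37.7% and 51.9% in the same order, and for EXPA15 28.9%, 31.7%, 44.9% and 56.3%. For these 3 genes the pairs of experiment 1 were the ones with the lowest shares and pair 2-2 the one with the highest. EXLA2 did not follow that order, with 43.9%, 65.1%, 51.7% and 56.9%, and EXPA4 lay between 48.2% and 72.5%. The number of a pair marks a shared experiment, but nothing says that replica 1 in air and replica 1 in ethylene belong together more closely than that.

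Within experiment 1 the log2 differences between ethylene and air were −2.55 for EXPB1, −1.72 for EXPA15, −1.57 for EXPA8, −0.90 for EXLA2 and −0.86 for EXPA4. Within experiment 2 they were −1.49 for EXPB1, −0.99 for EXPA15, −1.18 for EXPA8, −0.88 for EXLA2 and −0.57 for EXPA4. Each of these rests on 2 arrays against 2, with SEs of 0.16 to 0.25. All 10 differences were negative, which follows in part from how the genes were picked and is no separate replication. In size, 4 of the genes had the smaller difference in experiment 2 by a visible margin, while EXLA2 had nearly the same in both when all arrays were used. In experiment 1 the EXLA2 difference was −0.65 without ethylene 1-1 and −1.15 without ethylene 1-2. Whether the ethylene difference itself differed between experiments was also computed with limma. It is built from the same ethylene and air differences on which the genes were picked. The p-values and intervals below are therefore a description and no independent test. The change from experiment 1 to experiment 2 was 1.07 for EXPB1 (95% interval 0.31 to 1.83, unadjusted p = 0.00945, adjusted p = 0.805) and 0.73 for EXPA15 (0.06 to 1.40, unadjusted p = 0.034, adjusted p = 0.86). It was 0.39 for EXPA8 (−0.09 to 0.87), 0.29 for EXPA4 (−0.20 to 0.77) and 0.02 for EXLA2 (−0.54 to 0.58), with adjusted p of 0.86, 0.873 and 0.993. None of the 5 passed, as did 0% of all tested probe sets, of which 917 had an unadjusted p under 0.05 (796 would by chance). The intervals for EXPB1 and EXPA15 allow changes of more than 2-fold between the experiments, and those for EXPA8, EXPA4 and EXLA2 do not reach that size.

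**Figure D2:**
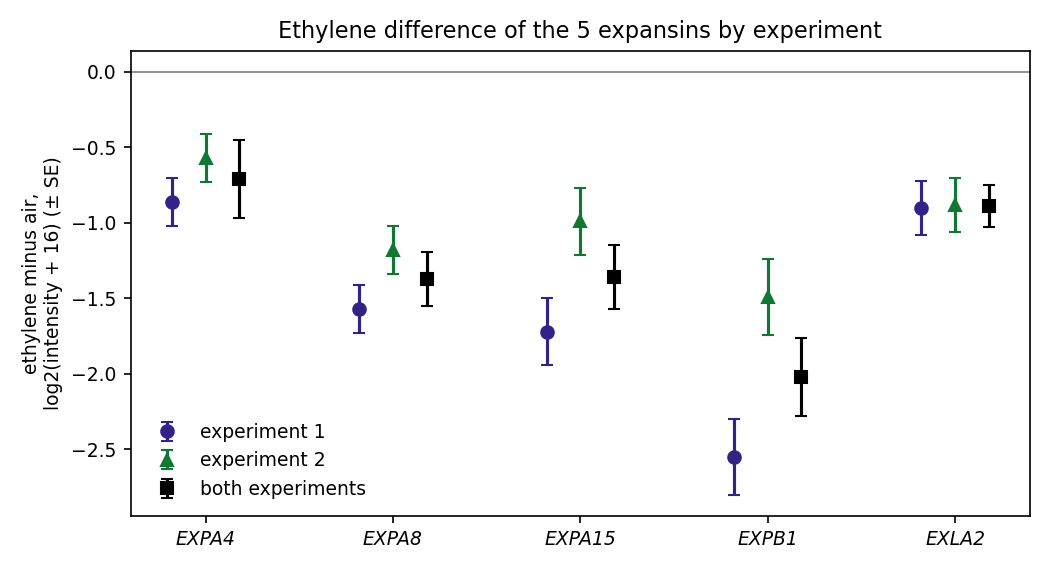
Ethylene minus air on the log2(intensity + 16) scale for the 5 expansins within experiment 1 (circles), within experiment 2 (triangles) and over both (squares); bars are the SE from limma. EXPB1 goes from −2.55 to −1.49 between the experiments and EXLA2 from −0.90 to −0.88.

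The same genes were then compared between the experiments at equal treatment, a contrast on which they were not picked. Averaged over air and ethylene, EXPA4 was lower in experiment 2, at −0.73 in log2 units (SE 0.11, limma adjusted p = 0.000512), and EXPA8 was lower by a smaller amount, −0.35 (SE 0.11, adjusted p = 0.0299). EXPA15 differed by −0.28 (SE 0.15, adjusted p = 0.186), EXPB1 by 0.20 (SE 0.18, adjusted p = 0.411) and EXLA2 by −0.04 (SE 0.13, adjusted p = 0.836), and these 3 did not pass. So 2 of the 5 genes were called, beside 30.6% of all tested probe sets, a share that leaves 2 of 5 unremarkable. The direction of the array-wide difference between experiments depended on the scaling. Over all tested probe sets the median difference was 0.07, with 2898 called higher and 1980 lower in experiment 2, and with arrays centred on their medians it was −0.07, with 1820 higher and 2962 lower. Quantile normalization gave 2454 higher and 2267 lower. EXPA4 was called under each of these scalings, at −0.88 with median centring and −0.78 with quantile normalization. The EXPA8 call ended with quantile normalization (adjusted p = 0.0669), without an intensity trend in limma (0.079), and without air 1-1, air 1-2, air 2-2, ethylene 1-2 or ethylene 2-1 (0.0672 to 0.116).

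In air alone, EXPA4 was lower in experiment 2 by 0.88 on the log2 scale (difference −0.88, SE 0.16, adjusted p = 0.0039). EXPA8 had −0.55 there (SE 0.16, adjusted p = 0.0339) and EXPA15 had −0.65 (SE 0.22, adjusted p = 0.0634). EXPB1 and EXLA2 had −0.33 and −0.05 in air, with adjusted p of 0.387 and 0.876. Called in air were EXPA4 and EXPA8, beside 15.1% of tested probe sets. EXPA15 passed with median centring (0.0348) or quantile normalization (0.0351), and EXPA8 no longer passed without an intensity trend (0.0959), with quantile normalization (0.0981) or without any 1 of the 4 air arrays (0.0873 to 0.216). In ethylene alone EXPA4 was again lower in experiment 2, with −0.59 (SE 0.16, adjusted p = 0.028), beside 13.6% of tested probe sets called. That call ended without any 1 of the 4 ethylene arrays (0.0542 to 0.146) or without the trend (0.0834). EXPB1 had a positive difference in ethylene, 0.74 (SE 0.25, adjusted p = 0.0668), which passed only without ethylene 1-2 (0.0478) among the alternatives run. EXPA8, EXPA15 and EXLA2 had −0.15, 0.09 and −0.03 in ethylene and did not pass.

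**Figure D3:**
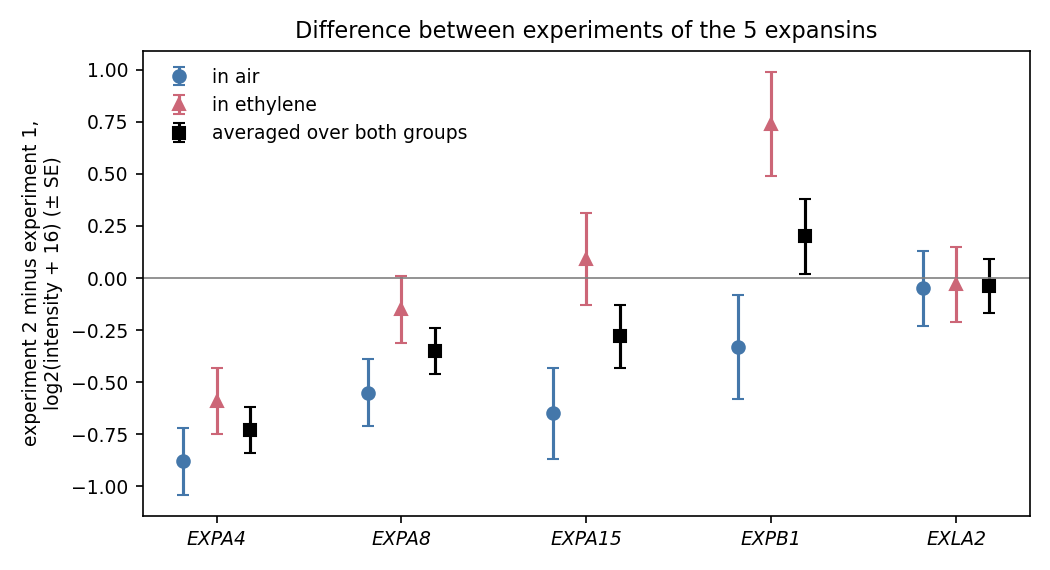
Experiment 2 minus experiment 1 on the log2(intensity + 16) scale for the 5 expansins in air (circles), in ethylene (triangles) and averaged over both groups (squares); bars are the SE from limma. EXPA4 is below 0 in both groups, at −0.88 and −0.59, and EXPB1 is at −0.33 in air and 0.74 in ethylene.

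The 4 conditions can be put in order for each gene from the means of 2 replicas. For EXPA4 this order was air of experiment 1 (10675), ethylene of experiment 1 (5866), air of experiment 2 (5780) and ethylene of experiment 2 (3892), and the middle conditions overlapped. For EXPA8 it was air of experiment 1 (28560), air of experiment 2 (19583), ethylene of experiment 1 (9614) and ethylene of experiment 2 (8677), the ethylene conditions overlapping. EXPA15 had air of experiment 1 at 2728, air of experiment 2 at 1745, and ethylene of experiments 2 and 1 at 865.2 and 818.1, which overlapped. For EXPB1 the air conditions, at 6310 and 5018, overlapped, and ethylene followed with 1778 in experiment 2 and 1065 in experiment 1. For EXLA2 the air conditions at 6925 and 6698 overlapped and so did the ethylene ones at 3749 and 3619. Thus only EXPA4 placed an ethylene condition level with an air one.

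The variation over the 8 arrays was divided, as a description, between group, experiment, the change of the group difference between experiments, and replicas. Group held 91.4% of the sum of squares of the log2 values for EXLA2, 90.7% for EXPA8, 88.1% for EXPB1 and 87.7% for EXPA15. For EXPA4 group held 46.4% and experiment 49.2%. The change of the group difference between experiments held 6.37% for EXPA15, 6.18% for EXPB1, 1.91% for EXPA4, 1.86% for EXPA8 and 0.0129% for EXLA2. The difference between replicas held 1.58% (EXPA8) to 8.36% (EXLA2). Replicas of a condition were 0.03 to 0.51 apart on the log2 scale over the 5 genes, and the widest distances were those of EXPB1, 0.43 to 0.51, and of EXLA2 in ethylene of experiment 1, 0.50. The median over all tested probe sets was 0.23.

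Across the 8 arrays the log2 values of EXPA8 and EXPA15 had a Pearson r of 0.98, and the pairs among EXPA8, EXPA15, EXPB1 and EXLA2 had 0.93 to 0.98. EXPA4 had 0.63 with EXPB1, 0.67 with EXLA2, 0.82 with EXPA15 and 0.84 with EXPA8. After each experiment's mean was removed all pairs had 0.90 or more. These values are a description, since the arrays share the treatment and experiment and the genes were picked for their ethylene difference.

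The genes with the pattern most like each of the 5 were looked up over the same 8 arrays, among 8675 other tested probe sets that name 1 gene. The closest to EXPA4 was AT3G06750 (r = 0.994), followed by HCT (0.990), which encodes a hydroxycinnamoyltransferase of lignin synthesis, and AT5G20885 (0.987). Like EXPA4, these 3 had negative differences between experiment 2 and experiment 1, of −0.62, −0.50 and −0.56 on the log2 scale. The closest to EXPA8 were AT1G68850 (0.992), AT2G30930 (0.991) and AT1G72140 (0.989). AT1G72140 was also the closest to EXPA15 (0.990), followed by AT5G40630 (0.987) and by EXPA8 itself (0.984). For EXPB1 they were AT1G78260 (0.983), AT2G23120 (0.983) and AT4G23870 (0.977), and for EXLA2 AT5G59350 (0.987), AT1G74460 (0.981) and HHP2 (0.979). With deviations from the experiment means in place of the values, these 15 places were taken within the closest 28 genes of each member. With 8 arrays in 4 conditions many genes reach such values, and they say nothing of shared function or control.

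The other expansins are given beside the 5 genes. Since the 5 were picked from the family on ethylene against air, the low count left among the others follows in part from that choice. It does not measure how far the family as a whole went the same way. Of the 13 others with a probe set of their own, 9 were tested, 1 was higher and 0 were lower in ethylene, beside 1.56% of all tested probe sets called higher and 2.55% called lower. Their median difference was −0.29 and 5 of the 9 were negative. With the experiment as a block 2 were higher and 2 lower, beside 4.33% and 7.35%.

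The higher gene without the block was EXPA7, and EXPA18 was added with it; both are alpha-expansins of root hair cells. EXPA7 rose from 1226 ± 311.9 to 2136 ± 218.5 (SD, n = 4), by 0.82 in log2 units (SE 0.20), with a limma adjusted p of 0.0483 and of 0.00622 under the block. Its call ended when any single array but air 2-1 was left out (0.0687 to 0.135), without a filter (0.064), with median centring (0.0511), without a trend (0.0625) and with the random block (0.295). It did not pass in experiment 1 (0.0969) or experiment 2 (0.065) alone. EXPA18 had 0.44 (SE 0.18), with an adjusted p of 0.266 and of 0.0452 under the block. It did not pass with the 4 pairs as a block (0.0661), with averaged replicas and the experiment block (0.0575) or with the random block (0.708). Whether the 5 genes differed from this pair in their response was not tested, because the 5 were picked on that response.

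Lower with the block were EXPB3, a beta-expansin like EXPB1, and EXLA3, of the same group as EXLA2. EXPB3 had 1282, 1598, 1246 and 858.2 on air 1-1, 1-2, 2-1 and 2-2, and 782.2, 711.3, 586.1 and 525.5 on the ethylene arrays in that order. Its groups did not overlap, which 6.29% of all tested probe sets also showed in this direction. Its log2 difference was −0.90 (SE 0.23), at an adjusted p of 0.0583 and of 0.00429 under the block. EXLA3 had 549.3, 448.3, 486.4 and 414.3 in air and 243.1, 270.6, 293.2 and 162.8 in ethylene, again without overlap. Its difference was −0.95, with an SE of 0.27 and an adjusted p of 0.0857 (0.0427 when the experiment was a block). It did not pass with the 4 pairs as a block (0.0559) or with averaged replicas and the experiment block (0.0687). With the random block neither EXPB3 (0.255) nor EXLA3 (0.479) passed. EXLA1, the remaining expansin-like A gene, had 7919 ± 1374 in air and 7847 ± 292.5 in ethylene (SD, n = 4), a difference of 0.00 (SE 0.14, adjusted p = 0.999). The 3 expansin-like A genes therefore had differences of −0.89 (EXLA2), −0.95 (EXLA3) and 0.00 (EXLA1).

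The other tested alpha-expansins were EXPA9 at 0.29 (SE 0.17, adjusted p = 0.521), EXPA20 at −0.29 (SE 0.26, 0.748) and EXPA16 at −0.31 (SE 0.43, 0.857). EXLB1, the single expansin-like B gene, had −0.49 (SE 0.22, 0.366). Among the block settings it passed only with averaged replicas and the experiment block (0.0414). That fit rests on the condition means alone, so little is left to estimate the spread. EXLB1 did not pass with the experiment (0.0988) or the 4 pairs (0.0819) as a block, nor with the random block (0.898). EXPA16 was lower in experiment 2, by a log2 difference of −1.24 (adjusted p = 0.000868), larger in size than that of any of the 5 genes, with air values of 1212 and 1120 in experiment 1 and 461.8 and 373.0 in experiment 2. EXPA20 was higher in experiment 2, by 0.63 (adjusted p = 0.0172). EXPB2, EXPB5, EXPA21 and EXPA24 were under the filter and not tested; their mean intensities were 19.6 to 236.8 in each group, and the groups overlapped.

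**Figure D4:**
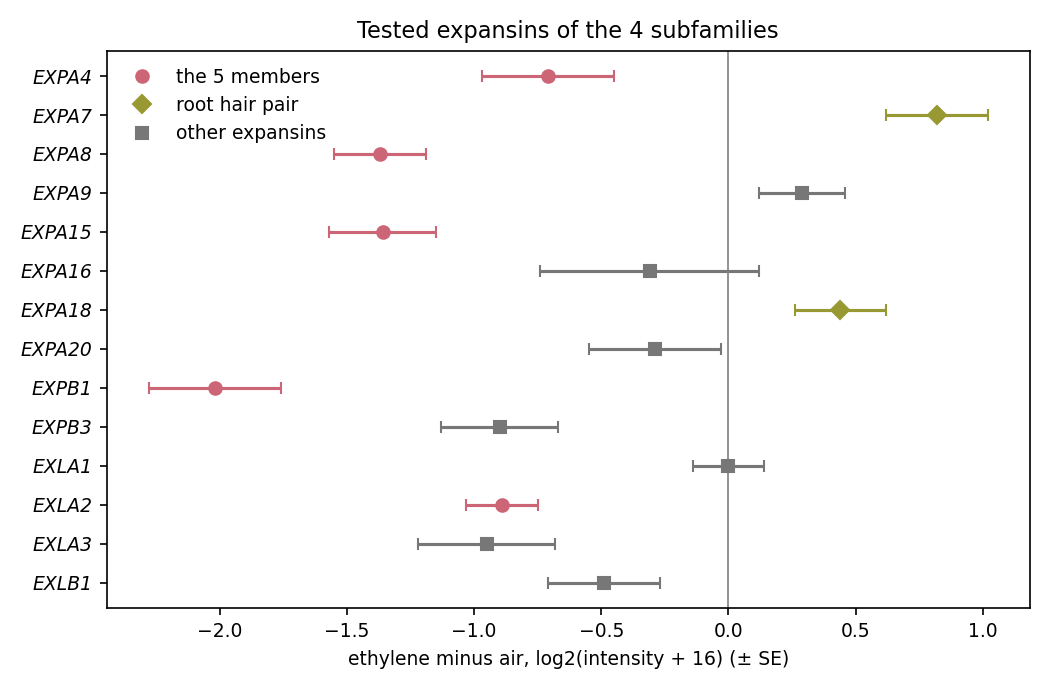
Ethylene minus air on the log2(intensity + 16) scale, with the SE from limma, for the 14 tested expansins with a probe set of their own, ordered by subfamily. The 5 genes described (circles) lie between −2.02 and −0.71, the root hair pair (diamonds) at 0.82 and 0.44, and the other 7 (squares) between −0.95 and 0.29.

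Other wall and growth genes were taken from lists, all compared in the same limma fit. The lists were written with earlier results of these data known, so calls of their genes are no independent support. Xyloglucan endotransglucosylase/hydrolases cut and rejoin the xyloglucan that ties cellulose together. Of 9 tested, 1 was higher and 1 lower, with a median of −0.01, beside 1.56% and 2.55% of all tested probe sets. The counts were also 1 and 1 with the block, beside 4.33% and 7.35%. XTH18 (0.46) passed with averaged replicas and the block (0.0195). It did not pass with the experiment (0.131) or the 4 pairs (0.0723) as a block, nor with the random block. The higher one was XTH26, of root hairs, at 3.10 (SE 0.61, adjusted p = 0.0169), and the lower one XTH21, known for a role in root growth, at −1.83 (SE 0.43, adjusted p = 0.0399). XTH26 had 104.8 ± 86.3 in air and 882.4 ± 461.5 in ethylene, and XTH21 had 645.1 ± 168.6 and 186.6 ± 91.7 (SD, n = 4). In its dimmer group each was below the air means of EXPB2 (224.8) and EXPB5 (203.9), which the filter left out. So each passed the filter through its brighter group. XTH26 was left out with a pseudocount of 1, and both were with 50% left out. The XTH26 call ended without ethylene 2-1 (0.0524) or ethylene 2-2 (0.0585), and the XTH21 call when any air array or either ethylene array of experiment 2 was left out (0.0521 to 0.121), without a filter (0.0611) and with the random block (0.272). In experiment 1 alone neither passed (0.0681 for XTH26 and 0.0719 for XTH21), and XTH21 did not in experiment 2 (0.0577). Apart from the random block, these checks were fitted with group alone. With the experiment as a block the limma adjusted p was 4.17e-05 for XTH26 and 0.00784 for XTH21.

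PME61, a pectin methylesterase, an enzyme class that changes the charge and stiffness of wall pectin, fell from 3060 ± 704.5 to 932.2 ± 211.1 (SD, n = 4), which is −1.70 in log2 units (SE 0.23, adjusted p = 0.00197). It was 1 of 2 tested genes of its list, beside 2.55% of all tested probe sets called lower, and its call held in all 21 alternatives. The other, ATPMEPCRB, had 0.44 (SE 0.30), at an adjusted p of 0.621 and of 0.0164 under the block. In the list of hypocotyl elongation regulators 2 genes were tested, THE1 and FER, and 1 was lower, beside the same 2.55%. THE1, which encodes a receptor-like kinase that senses wall integrity in growing cells, had 6156 ± 630.0 in air and 3313 ± 1005 in ethylene (SD, n = 4), lower by 0.94 in log2 units (−0.94, SE 0.21), at an adjusted p of 0.0354 and of 0.000474 under the block. THE1 no longer passed without the trend or when any single array was left out, ethylene 2-1 and 2-2 excepted (0.0582 to 0.0998), nor with the random block (0.111). FER, which encodes a receptor-like kinase of the same family, had 22509 ± 491.2 and 21744 ± 2671 (SD, n = 4), a difference of −0.06 (SE 0.14, adjusted p = 0.928). None of the 2 pectin synthesis and cutting genes, and not the 1 cellulose synthesis gene (COB), passed with or without the block. Plasma membrane proton pumps, which acidify the wall in which expansins act, SAUR growth genes and aquaporins had no probe set that names 1 of them alone in the annotation used, and are not analysed here.

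Marker genes of seedling parts were summed by array. Their lists were also chosen with earlier results of these data known, so these sums and calls are no independent support. The 3 tested root hair genes, EXPA7, EXPA18 and XTH26, summed to 3220 to 5526 in air and 6039 to 8250 in ethylene, without overlap, and 2 of 3 were higher in ethylene (3 of 3 with the block), beside 1.56% (4.33%) of all tested probe sets. Of these calls, that of EXPA18 was lost with the 4 pairs as a block, with averaged replicas and with the random block. The EXPA7 call was lost with the random block and without any single array but air 2-1, among other settings. For XTH26, which passed the filter through its ethylene values, the call was lost without ethylene 2-1 or 2-2 and in experiment 1 alone. The 2 seed reserve genes summed to 57089 to 94911 and 63634 to 110109, and the 8 photosynthesis genes to 72797 to 119042 and 88112 to 100049, with 0 of either called. No marker was at 0 on any array. Their part in the differences of the 5 expansins was not tested.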

How the data were processed

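The deposited table holds processed intensity values, 1 per probe set and array, for 22810 probe sets on 8 arrays. How probes were summarised, with which software, is not given in the sources used here. The mean after trimming 2% at each end was 2500.2 on every array of the authors' table, so each array had been scaled to a common target. The array medians were 832.0 to 980.9. Precision is limited by having 8 arrays, and saturated or background values could not be marked.

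Values were taken as log2(intensity + 16). The 64 control probe sets and the dimmest 30% of the others by mean log2 value were dropped, which left 15922 to test. Fits used limma 3.58.1 (intensity trend, Benjamini-Hochberg adjustment over all 15922, called at adjusted p under 0.05) in R 4.3.3, with group alone, or with a mean for each experiment and group. Python 3.11.15, pandas 2.3.3 and matplotlib 3.10.9 were used. The fits were also run on simulated data with independent noise on each array. That could not show whether treating replicas as separate samples added calls.

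The labels say that the first number of an array marks an experiment shared by both groups. Deviations from group means correlated at 0.28 to 0.593 between air and ethylene arrays of the same experiment, and at −0.252 or lower across experiments. Replicas correlated at 0.964 to 0.979 and were kept as separate samples.

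Genes came from the array annotation, in which 13513 probe sets name 1 gene, 503 several, and 8730 are not listed. Of the 13513, 13436 matched the RefSeq table of TAIR10.1 by gene number. The array's build is not given, so no coordinates are printed. Of the lists, counted as genes with a probe set of their own among genes of the list, other expansins had 13 of 31, xyloglucan endotransglucosylase/hydrolases 10 of 33, pectin methylesterases and inhibitors 3 of 22, pectin synthesis and cutting 2 of 23, primary wall cellulose synthesis 1 of 12, hypocotyl elongation regulators 3 of 37, seed reserve mobilisation 2 of 14, photosynthesis 8 of 56 and root hair 3 of 20.

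The 5 genes and the lists were chosen with earlier results of these data known. Named were the 5 genes, every tested other expansin, up to 3 called genes in each direction of the other lists, and the 3 genes most like each of the 5. A gene with several probe sets was shown by the brightest. No protein or promoter sequences were used here.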

Additional observations from a re-analysis of the deposited data

Results flagged for a closer look

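Among 30 genes and 60 groups of 4 arrays examined, 2 groups had 1 array far from the other 3 on the log2 scale (gap over range beyond Dixon's 95% limit for 4 values), where about 1 in 20, or 3, would by chance. Both were xyloglucan endotransglucosylase genes on ethylene 2-2, and none of the 5 expansins was among them. XTH33 was at 5350 there against 3730 to 3870 on the other ethylene arrays (gap over range 0.898). EXGT-A3 was at 10764 there against 10083 to 10152 (gap over range 0.896).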

How the results depend on the processing

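Ethylene against air was recomputed under 21 alternatives and the comparison of experiments under 15. Those for each group or experiment alone were added after the data were seen. Where no block is named, ethylene against air was fitted with group alone. The log2 differences between ethylene and air ranged from −0.88 to −0.52 for EXPA4, −1.57 to −1.18 for EXPA8, −1.72 to −0.99 for EXPA15, −2.55 to −1.49 for EXPB1 and −0.98 to −0.81 for EXLA2. The ends for EXPA15 and EXPB1 were the 2 experiments taken alone, beyond the spread between replicates. The number of the 5 called lower was 3 to 5. The experiment block ended no call of the 5 and added EXPA4, while the random block ended that of EXLA2. The counts of 406 lower and 249 higher probe sets became 1170 and 689 with the experiment as replicate block, 1133 and 643 with the 4 pairs as replicate block, 1255 and 747 with averaged replicas and that block, 130 and 119 with replicas as a random block (correlation 0.458), 374 higher in experiment 1 alone, and 641 and 387 in experiment 2 alone. Without 1 array they were 214 to 315 lower and 164 to 204 higher. The lower count moved by over 1.5 times without air 2-1 (214), air 2-2 (238), air 1-2 (243), ethylene 1-2 (246) or ethylene 2-2 (266), and the higher count without ethylene 1-2 (164). Of the other wall and growth genes, 3 were lower and 2 higher. With the experiment as replicate block 5 were lower and 4 higher, adding EXPB3, EXLA3, EXPA18 and ATPMEPCRB. With averaged replicas and that block they were again 5 and 4 but not the same genes, with EXLB1 and XTH18 in place of EXLA3 and EXPA18. The averaged fit rests on the condition means alone, so little is left to estimate the spread. With the random block 1 of these genes was lower and 1 higher. The higher count was 1 with a pseudocount of 1, without a filter, with 50% left out, with median scaling, without a trend and in experiment 2 alone, and 0 in experiment 1 alone. Without 1 array it was 0 (without ethylene 2-1 or 2-2) to 2, and the lower count 1 (without air 1-1, 1-2 or 2-1) to 2. Between experiments, EXPA8 did not pass at −0.27 with quantile normalization or at −0.35 without a trend, and without 1 array its difference was −0.42 to −0.28. EXPA4 passed in all 15 (adjusted p 0.000181 to 0.00738), and no change of the ethylene difference between experiments passed in any. The cause of these shifts was not tested. Promoter motif counts in a shorter window were not run, as no sequences were used.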
